A study of Zea mays with 9 samples.

Results

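The 811 genes described here lie at both ends of maize chromosome 1, of 38703 gene identifiers measured in all. They were chosen by identifier number and not by a measured value, though with earlier results of these data known. The first block runs from Zm00001d027231 to Zm00001d027730 and holds 392 genes, and the second runs from Zm00001d034400 to Zm00001d034900 and holds 419. The assay was ATAC-seq: a transposase cuts exposed DNA and tags it for sequencing, so accessible chromatin collects more reads. Nuclei came from flash-frozen roots of seedlings of B73, an inbred maize line, and there were 3 libraries each at 0 h, 6 h and 12 h of tunicamycin. All 3 groups share the agent and the line. Tunicamycin is labelled as 5 mg per ml in DMSO, without saying whether that is the stock or the final concentration. One label calls the material protoplasts, while the source and the extraction protocol name root. The series describes the replicates as biological. Every 6 h and 12 h library was treated, so the effects of the drug and of elapsed time cannot be told apart.

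Maize chromosomes carry most of their genes and most of their crossovers in the distal parts of the arms, while the stretches around the centromeres are rich in repeats and tightly packed. Genes near chromosome ends therefore sit in a different neighbourhood from genes in the middle of an arm. Tunicamycin stops the attachment of N-linked sugars to new proteins, which then misfold in the endoplasmic reticulum and set off the unfolded protein response. These values address whether coverage at the chromosome ends differed from the rest before and during the treatment. The windows counted are unknown, so a difference in level between genes is not by itself one of accessibility.

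The identifiers behave as a map in the deposited table, which gives no coordinates. Its rows fall into 10 long stretches of running numbers, and both blocks lie in a stretch of 5834 rows that runs from Zm00001d027230 to Zm00001d034962. This stretch is taken as chromosome 1 here. The first block starts 1 number into it. The second block stops 62 numbers before its last one, and 44 rows lie in that remainder. None of the 811 identifiers was found in the RefSeq gene table used here, so genes are given by identifier and no role is assigned to any of them.

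Total coverage, summed over the listed rows, was 35.0 to 39.1 megabases in the 0 h libraries, 28.9 to 33.1 at 6 h and 35.8 to 36.8 at 12 h. Coverage counts sequenced bases, and low values pile up on multiples of 73, so 73 bases are taken as about 1 read. In those units the rows of a library summed to between 396306 and 536001 reads. These sums cover the listed rows only and are not the number of reads sequenced. Values below were divided by library scale factors and are called scaled coverage. The median member held 13.8 reads per library, against 10.9 for the other 37892 rows, and at that depth single genes are measured coarsely.

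More of the identifier numbers in the blocks had a row than in the interior taken as a whole. In the first block 392 of 500 numbers were present (78.4%) and in the second 419 of 501 (83.6%), against 4978 of the 6669 numbers between them (74.6%). The interior was uneven: of the 500 numbers from 30231 on, 279 had a row (55.8%), while the 500 numbers just past the first block had 80.2% present. The 500 from 32231 on had 78.6% present. The first block thus lay within the range of interior steps. Of the 62 numbers past the second block, 44 had a row (71.0%). The longest run of missing numbers was 6 in the first block, after Zm00001d027558, and 3 in the second, after Zm00001d034463. Over the whole chromosome it was 11. A missing number cannot be told from a gene with no coverage.

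Genes at the chromosome ends had more coverage than other genes, at both ends and in all 9 libraries. Median scaled coverage was 996 in the first block and 1022 in the second, against 796 over all other rows. The blocks were thus 1.25 and 1.28 times the level of the rest. Genes in the interior of chromosome 1 had a median of 803, close to the 794 of rows outside the chromosome. Since the members were picked as a set with earlier results of these data known, no p-value is attached to this difference. Its size in single libraries stands in its place. The log2 difference between the median member and the median other row ran from 0.27 to 0.36 over the 9 libraries for both blocks together. For the first block alone it ran from 0.24 to 0.35, and for the second from 0.27 to 0.39. The values of the 2 blocks overlapped, so they are not set apart from each other by level.

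**Figure D1:**
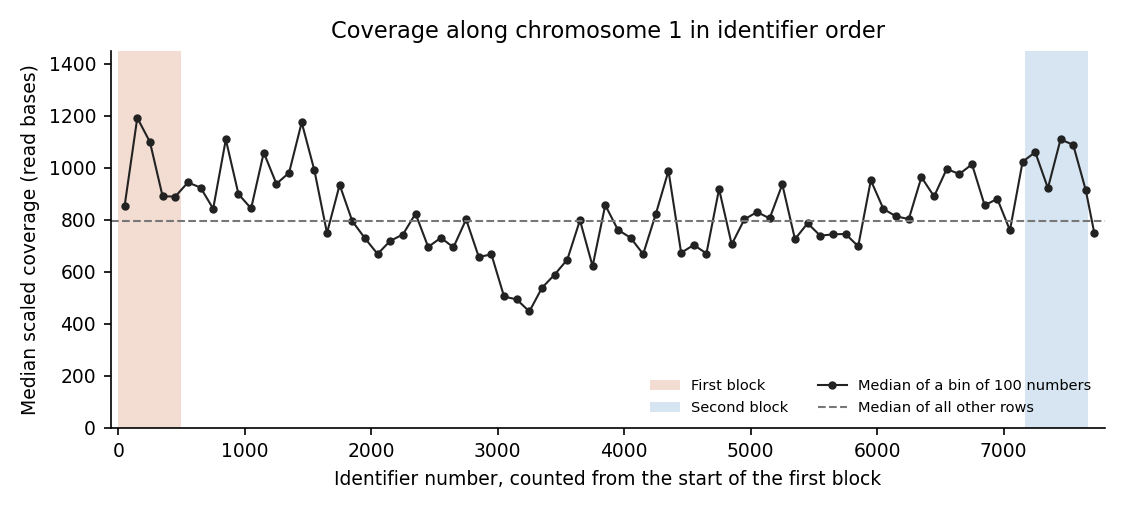
Median scaled coverage in read bases (y axis) for bins of 100 identifier numbers along chromosome 1 (x axis, counted from the start of the first block), with the blocks shaded and the median of all other rows dashed. Bins of the first block reach 1192, coverage stays above the dashed line for well over 1000 numbers inward, and the lowest bin, at 448, lies in the interior.

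The level did not step down at the inner edge of the first block. From the first block inward, medians over steps of 500 numbers were 996, 946, 967, 841 and 728. They reached a low of 528 in the 500 numbers from 30231 on. In the last full step before the second block, from 33731 to 34230, the median was 943. Just outside the second block it was uneven: the 68 rows of the 100 numbers from 34231 on had a median of 759.5, below all 5 steps of the block. Levels like those of the blocks therefore extended for about 1000 further numbers inward from the first block. The 44 rows past the second block, at the end of the stretch, had a median of only 735.

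The same holds within the blocks, which were uneven. In the first block, the 76 genes from Zm00001d027231 to Zm00001d027330 had a median of 854. The next 78, from Zm00001d027332 to Zm00001d027430, reached 1192 and held 17 of the block's 41 genes with coverage of 2000 or more. The 88 genes from Zm00001d027431 to Zm00001d027530 had 1099, and the last 2 steps 891 and 889. The 73 genes of the innermost step, from Zm00001d027631, held none with 2000 or more. In the second block the steps of 100 numbers ran more evenly, with medians of 1012, 1018, 1128, 1095 and 941. The lowest of these was the outermost step. In both blocks the outermost step thus had the lowest median. A wider outer part of the first block, which reaches past its outermost step, lay higher than the block as a whole. Its log2 level over other rows was 0.38, against 0.30.

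The higher medians came from a shift of the whole distribution. Of the members, 20.2% were among the 10% of all rows with the highest mean coverage, which starts at 1649, against 9.78% of the other rows. At the low end, 4.81% of members and 10.1% of other rows fell among the lowest 10%, which ends at 287. Coverage of 2000 or more was held by 79 members (9.74%), 41 in the first block and 38 in the second, against 4.20% of other rows. Coverage under 200 was held by 24 members (2.96%) against 5.93% of other rows. The interquartile range was 632 to 1508 in the first block and 666 to 1441 in the second, against 492 to 1200.5 for other rows. The spread over genes on the log2 scale was 0.86 and 0.84 in the blocks and 0.92 in the rest.

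**Figure D2:**
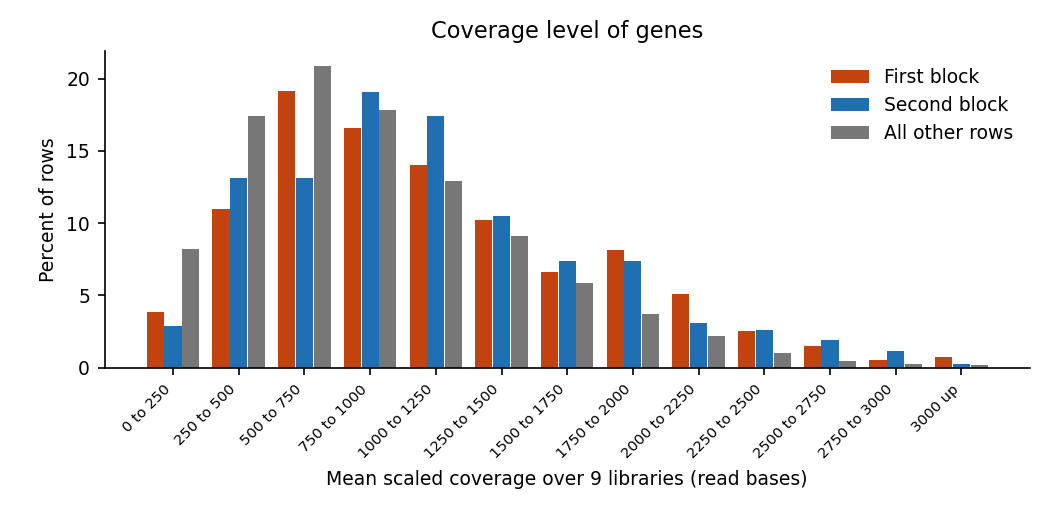
Percent of rows (y axis) by mean scaled coverage over the 9 libraries (x axis, read bases) for the first block, the second block and all other rows. Members are fewer than other rows below 500 and more frequent in every class from 1000 up.

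The most covered member was Zm00001d027460 in the first block. Its scaled coverage was 3583, 2629 and 3827 at 0 h, 3458, 2933 and 3367 at 6 h, and 3521, 3115 and 3399 at 12 h, and the times overlapped throughout. Zm00001d027412 followed with a mean of 3135. It had 3888, 3215 and 3678 at 0 h, 2784, 3132 and 2611 at 6 h, and 2451, 3585 and 2874 at 12 h. Every 6 h value lay below every 0 h value in this gene, while the 12 h values overlapped with both. Zm00001d027569 averaged 3067. In the second block the leading genes were Zm00001d034642 with 3177, Zm00001d034601 with 2960.2 and Zm00001d034558 with 2919. The highest mean among all other rows was 6073.

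At the other extreme, Zm00001d027257 averaged 15.9 and had coverage in 2 of the 9 libraries, 72.9 in 0 h replicate 2 and 70.4 in 12 h replicate 3, about 1 read in each. Zm00001d034530 averaged 35.0 and was at 0 in 6 libraries. The other least covered members were Zm00001d027697 (62.6) and Zm00001d027476 (74.2) in the first block and Zm00001d034686 (56.5) and Zm00001d034738 (82.5) in the second. These means amount to about 1 read or less per library, and no change can be read from them. In all, 19 members (2.34%) were at 0 in at least 1 library, against 5.30% of other rows.

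The edges of the blocks were set by number and fall between unlike genes. The first member, Zm00001d027231, averaged 1425 and its outer neighbour Zm00001d027230 averaged 468. The last member of the first block, Zm00001d027729, averaged 764, and the next row, Zm00001d027731, 1769. In the second block Zm00001d034400 averaged 821 after 558 in Zm00001d034399, and Zm00001d034900 averaged 1644 before 1075 in Zm00001d034901.

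Neighbouring genes were only weakly alike in level. Across neighbouring rows, which are not independent replicates and share libraries and depth, Pearson's r of log2 coverage was 0.10 over 391 pairs in the first block and 0.28 over 418 pairs in the second. In the interior of the chromosome it was 0.16 over 5020 pairs. Between rows 20 apart it was 0.02, -0.01 and 0.02 in that order. The windows counted, and hence whether neighbours share reads, are unknown here. Zm00001d027472 and Zm00001d027475 held the same value in each of the 9 libraries, at a mean of 633, and so did the neighbours Zm00001d034675 and Zm00001d034676, at 930.2. Zm00001d027257 matched a row elsewhere at the coverage of single reads. These 5 members (0.617%) compare with 0.422% of other rows that equal another row.

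The same measure was taken over the first and last 500 numbers of the 9 other long stretches of identifiers, taken as the other chromosomes. Medians over these 18 ends ran from 729.8 to 1056, with a middle value of 849. Of the 18, 3 had a higher median than the first block and 1 had a higher median than the second. The second block stops short of the end of its stretch, however. Over the last 500 numbers of chromosome 1 the median was 1005.7, below the 1056 and 1009.5 at ends of other stretches. Both ends lay above the rest of the stretch in 5 of the 9. The ends of chromosome 1 were thus on the high side among ends and not beyond their range.

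At 6 h the chromosome ends held a smaller part of all coverage than at 0 h. Together the blocks held 2.54% ± 0.0106 of coverage at 6 h and 2.65% ± 0.0191 at 0 h (SD, n = 3 each), a relative change in mean share of -4.21%. The first block held 1.23%, 1.22% and 1.25% in the 6 h libraries, against 1.29%, 1.30% and 1.29% at 0 h. The second held 1.30%, 1.32% and 1.30% at 6 h, against 1.38%, 1.35% and 1.35% at 0 h. In either block every 6 h library lay below every 0 h library. Such separation was not limited to the blocks. The other rows of chromosome 1 and the rows outside it also had no overlap between 6 h and 0 h, both with higher shares at 6 h. Of the interior steps used above for medians, the step from Zm00001d028231 lay lower at 6 h without overlap. The steps from Zm00001d029732, Zm00001d030231, Zm00001d032732 and Zm00001d033231 lay higher without overlap. Every 6 h library also had a lower total than every 0 h library, so depth and time cannot be told apart in this comparison.

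At 12 h the first block was still below 0 h, while the libraries of the second overlapped with it. The first block held 1.25%, 1.24% and 1.25% at 12 h, below all 0 h values, a relative change of -3.46%. The second block held 1.37%, 1.38% and 1.37%, which overlapped with 0 h. Its mean share was 1.08% higher at 12 h than at 0 h, with 1.78% without 0 h replicate 1 and 0.611% without 0 h replicate 3. Set against 6 h, the second block's share at 12 h was 5.03% higher and the libraries did not overlap. The first block's was 1.28% higher, with overlap. Every 12 h library also had a larger total than every 6 h library, so depth and time cannot be told apart here either. The other rows of chromosome 1 and the rows outside it were also without overlap at 12 h against 0 h and against 6 h. The difference between the blocks in these changes was not tested.

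**Figure D3:**
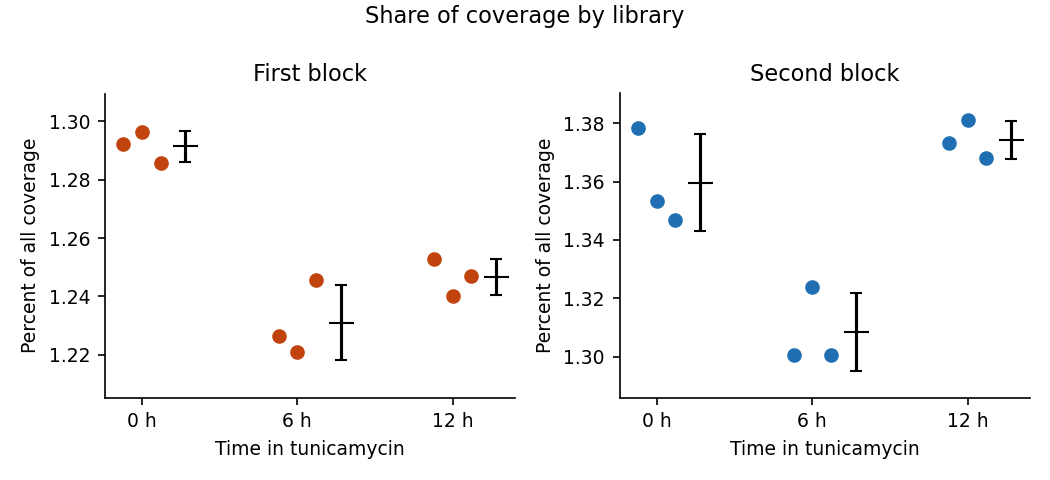
Percent of all coverage (y axes, which start above 0 and cover equal spans) held by the first and second block in each library (points) at 0 h, 6 h and 12 h, with the mean and SD of 3 libraries in black. The first block stays below its 0 h values at 12 h, and the second overlaps with its own.

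These differences in share are small for any one gene. For 6 h against 0 h the median member had a log2 change of -0.07, against -0.01 over all other rows, and the medians were -0.08 in the first block and -0.06 in the second. Of the 811 members 344 had a change above 0 (42.4%), where over all rows the share was 49.0%. For 12 h against 0 h the medians were -0.05 in the first block and 0.00 in the second, with 173 of 392 (44.1%) and 212 of 419 (50.6%) above 0, against 49.8% of all rows. For 12 h against 6 h they were 0.02 and 0.09, with 207 (52.8%) and 251 (59.9%) above 0, against 50.9% of all rows. The interquartile range of the members' changes ran from -0.28 to 0.14 at 6 h against 0 h. The median standard error of one gene's change was 0.29.

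The shift at 6 h was larger among the more covered members. All rows were put into 4 classes of equal size by mean coverage over the 9 libraries. In the highest class, from 1206 up, 302 members had a median log2 change of -0.12 for 6 h against 0 h, and 92 of them (30.5%) were above 0. The 9374 other rows of that class had -0.05, with 41.2% above 0. Among the 10% with the highest coverage the medians were -0.14 in 164 members and -0.07 in 3707 other rows. In the lowest class members had 0.02 and other rows 0.04. Neither block followed this order strictly: from the lowest class to the highest the first block had 0.02, 0.06, -0.09 and -0.13, and the second 0.06, -0.10, 0.02 and -0.11. For 12 h against 0 h, members of the highest class had -0.10 in the first block and -0.06 in the second, against -0.06 in other rows. For 12 h against 6 h the second block was at 0.04, 0.10, 0.09 and 0.09 from the lowest class to the highest, while other rows stayed between 0.00 and 0.02.

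**Figure D4:**
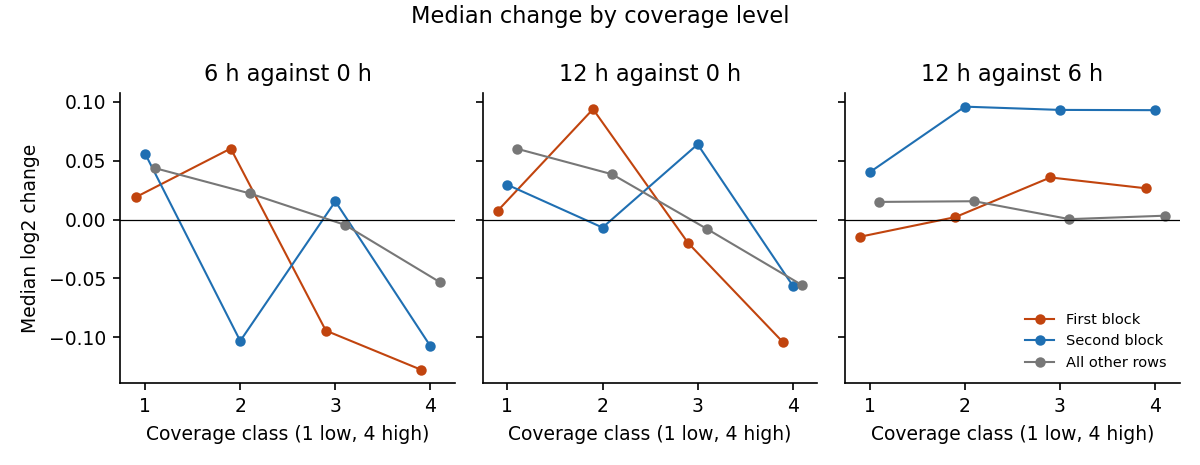
Median log2 change (y axis) of genes in the first block, the second block and all other rows, by class of mean coverage over all rows (x axis, 1 lowest to 4 highest), for 3 comparisons. In the highest class both blocks lie below other rows at 6 h against 0 h, and the second block lies above them in all classes at 12 h against 6 h.

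The share at 6 h was also lower in some neighbouring parts of the chromosome. The 391 genes in the 500 numbers from 28231 on held 1.18% at 6 h and 1.22% at 0 h, with a median log2 change of -0.08. In the step between them and the first block, of 401 genes, the shares were 1.22% at both times and the median change was -0.01. In the interior step of lowest coverage, with 279 genes, the share was 0.495% at 6 h and 0.460% at 0 h, and the median change was 0.10. Among the 18 ends of other stretches, 16 had a median change under 0 at 6 h against 0 h, between -0.11 and 0.02 over all 18. For 12 h against 6 h, their medians ran from -0.06 to 0.06, and the second block had 0.09, above each of them. All these medians come from the same 9 libraries.

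Within the blocks the share at 6 h differed most from 0 h in middle steps. Genes from Zm00001d027332 to Zm00001d027430 held 0.288% ± 0.00529 at 6 h and 0.310% ± 0.0101 at 0 h (SD, n = 3 each), and those from Zm00001d027431 to Zm00001d027530 held 0.286% ± 0.0110 and 0.311% ± 0.00906. In each of these steps no 6 h library overlapped with 0 h. The outermost 76 genes of the first block held 0.212% at 6 h and 0.211% at 0 h. In the second block the step from Zm00001d034500 to Zm00001d034598 held 0.266% ± 0.00792 at 6 h and 0.287% ± 0.00662 at 0 h. The steps from Zm00001d027531, Zm00001d034600 and Zm00001d034700 likewise had all 6 h libraries below all at 0 h. Some margins were narrow. From Zm00001d034600 the highest 6 h library held 0.2672% and the lowest 0 h library 0.2678%. From Zm00001d027531 these values were 0.2420% and 0.2437%. How often steps of this size outside the blocks separate in the same way was not tested. The outermost 90 genes of the second block held 0.256% at 6 h and 0.252% at 0 h. The outermost step of either block therefore showed no lower share at 6 h. In the innermost steps the libraries overlapped. Those from Zm00001d027631 held 0.207% at 6 h and 0.213% at 0 h, and those from Zm00001d034400 held 0.259% and 0.263%.

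No single member passed the threshold at either time. At 6 h set against 0 h, limma gave 0 members an adjusted p under 0.05, with the adjustment made over all 38703 rows, of which 0% were called. At an unadjusted p under 0.05 there were 61 members (7.52%), against 6.39% of all rows. They were made up of 18 members with higher coverage (2.22%), against 2.86% of all rows, and 43 with lower coverage (5.30%), against 3.53%. With voom weights limma also called 0 members, with 51 of 811 at the unadjusted level, against 2119 of all 38703 rows. The 6 h values were all below the 0 h values in 66 members (8.14%), against 5.66% of all rows, and above them in 32 (3.95%), against 5.35%.

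Among members with less coverage at 6 h, Zm00001d027370 had the lowest p in the first block. It held 1904, 1228 and 1934 at 6 h, against 2663, 2786 and 2312 at 0 h. The groups did not overlap, and its log2 change was -0.62 (SE 0.20, limma adjusted p = 0.636). Zm00001d027450 had 1116, 1592 and 1552 at 6 h, against 2224, 2275 and 2173 at 0 h, again without overlap (log2 change -0.64, limma adjusted p = 0.636). Zm00001d027384 came next, with 659.8, 608 and 737 at 6 h against 1108, 1373 and 1229.5 at 0 h. These 3 genes lie in the 2 neighbouring steps, from Zm00001d027332 to Zm00001d027530, described above.

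In the second block Zm00001d034461 had the largest change of the named members at 6 h, and little coverage behind it. It held 0, 228 and 88.6 at 6 h, against 392, 510.2 and 269 at 0 h, so at most about 3 reads at 6 h (log2 change -1.57, limma adjusted p = 0.636). That change was -1.04 without 6 h replicate 1, -3.79 with a pseudocount of 1 and -4.03 with voom weights. Zm00001d034572 had 515, 304 and 199 at 6 h, against 655, 684 and 776 at 0 h (log2 change -0.99, limma adjusted p = 0.667). Zm00001d034497 had 1109, 489 and 735 at 6 h against 1116, 1401 and 1517 at 0 h, nearly touching. In these 3 genes the groups did not overlap, and none passed the threshold.

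Higher coverage at 6 h was led by Zm00001d034660 in the second block. It held 491, 706 and 514 at 6 h, against 69.6, 413 and 113 at 0 h, a log2 change of 1.44 (SE 0.45, limma adjusted p = 0.636). Zm00001d034577, with 1211, 921 and 1239.6 at 6 h, lay above its 899, 421 and 671 at 0 h. In the first block Zm00001d027485 had 917, 416 and 616 at 6 h, against 395, 193 and 111 at 0 h (log2 change 1.29, limma adjusted p = 0.636). In these 3 genes the groups did not overlap. They did in Zm00001d034475 and in Zm00001d027648.

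For 12 h against 0 h, limma again called 0 of the 811 members and 0% of all rows. At an unadjusted p under 0.05 there were 45 members (5.55%), against 5.37% of all rows, namely 26 with higher coverage (3.21%), against 2.66% of all rows, and 19 with lower coverage (2.34%), against 2.71%. With voom weights limma called 0 members, with 51 of 811 at the unadjusted level, against 2295 of all 38703 rows. The 12 h values were all above the 0 h values in 36 members (4.44%), against 5.59% of all rows, and all below them in 44 (5.43%), against 5.69%. At the unadjusted level the first block had 10 higher (2.55%) and 15 lower (3.83%). The second block had 16 higher (3.82%) and 4 lower (0.955%), where all rows had 2.66% and 2.71%. This contrast between the blocks was not tested.

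Zm00001d027576 had the lowest p of the members at 12 h. Its coverage was 1320.2, 1871 and 1362 at 12 h, against 398, 939.6 and 963 at 0 h. Every 12 h value exceeded every 0 h value, with a log2 change of 0.99 (SE 0.28, limma adjusted p = 0.812) that was 0.62 without 0 h replicate 1. At 6 h it had 1063, 1113 and 1486, also above all 0 h values. Zm00001d034660 again was higher, with 414, 349 and 701 at 12 h against 69.6, 413 and 113 at 0 h, and here the groups overlapped. Zm00001d034577, at 1027, 1083 and 1212 at 12 h, lay above its 0 h values as at 6 h. Both comparisons use the same 0 h libraries. Zm00001d027637, Zm00001d027582 and Zm00001d034767 had log2 changes of 1.01, 1.13 and 1.05, each with a limma adjusted p of 0.915. That of Zm00001d027582 was 0.65 without 0 h replicate 1.

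Lower coverage at 12 h was led by Zm00001d027567, with 126, 69.8 and 150.4 at 12 h against 469, 438 and 374 at 0 h. Its 12 h values are about 1 to 2 reads each, and the log2 change was -1.43 (SE 0.49, limma adjusted p = 0.915). Zm00001d027435 had 535, 999 and 669 at 12 h, against 1301, 1350.0 and 1349 at 0 h, a log2 change of -0.84 (limma adjusted p = 0.915). In the second block Zm00001d034784, one of its more covered genes, had 2296, 2596 and 2654 at 12 h against 3626, 3016 and 3537 at 0 h. Its 6 h values of 2770.4, 2323 and 2647 overlapped with those at 12 h (log2 change at 12 h -0.42, limma adjusted p = 0.915). Groups at 12 h and 0 h did not overlap in these 3 genes, nor in Zm00001d034655 and Zm00001d034544, at -0.62 and -1.39. The change of Zm00001d034544 was -0.90 without 12 h replicate 1, -2.11 and -3.62 with pseudocounts of 20 and 1, and -3.99 with voom weights. Zm00001d027710 had -0.86, or -0.36 without 12 h replicate 3, and 955 in 12 h replicate 2 overlapped with its 0 h values.

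Between 12 h and 6 h, limma called 0 of the 811 members and 0% of all rows. At an unadjusted p under 0.05 there were 52 members (6.41%), against 6.73% of all rows, namely 33 with higher coverage at 12 h (4.07%), against 3.5% of all rows, and 19 with lower coverage (2.34%), against 3.23%. With voom weights limma called 0 members, with 46 of 811 at the unadjusted level, against 2231 of all 38703 rows. The 12 h values were all above the 6 h values in 45 members (5.55%), against 5.63% of all rows, and all below them in 40 (4.93%), against 5.6%. The lowest p belonged to Zm00001d034572, with 930.2, 852 and 786 at 12 h against 515, 304 and 199 at 6 h. Its log2 change was 1.24 (SE 0.36, limma adjusted p = 0.536), with no overlap between 12 h and 6 h, and all its 12 h values also exceeded those at 0 h.

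Zm00001d034667 and Zm00001d027631 were higher at 12 h without overlap, with log2 changes of 1.13 and 1.02. Zm00001d027370 had 2526, 2222 and 2718 at 12 h, overlapping with its 0 h values, and a log2 change against 6 h of 0.56 (limma adjusted p = 0.583), or 0.36 without 6 h replicate 2. Zm00001d034501 had 2753, 2589 and 2537 at 12 h against 1869.7, 1578 and 2008 at 6 h, and Zm00001d027342 a log2 change of 0.64. Lower at 12 h was Zm00001d027569, with 2824, 2923 and 1807 at 12 h against 3132, 3936 and 3919 at 6 h (log2 change -0.55, limma adjusted p = 0.546), and its change was -0.33 without 12 h replicate 3. Zm00001d034763 had 734, 787 and 428 at 12 h against 1090.0, 1292 and 1477 at 6 h (log2 change -0.94, limma adjusted p = 0.553). Zm00001d027277, Zm00001d027528, Zm00001d034469 and Zm00001d034662 had log2 changes between -0.69 and -0.60. Without 12 h replicate 3 those of Zm00001d027277 and Zm00001d034662 were -0.42 and -0.39.

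**Figure D5:**
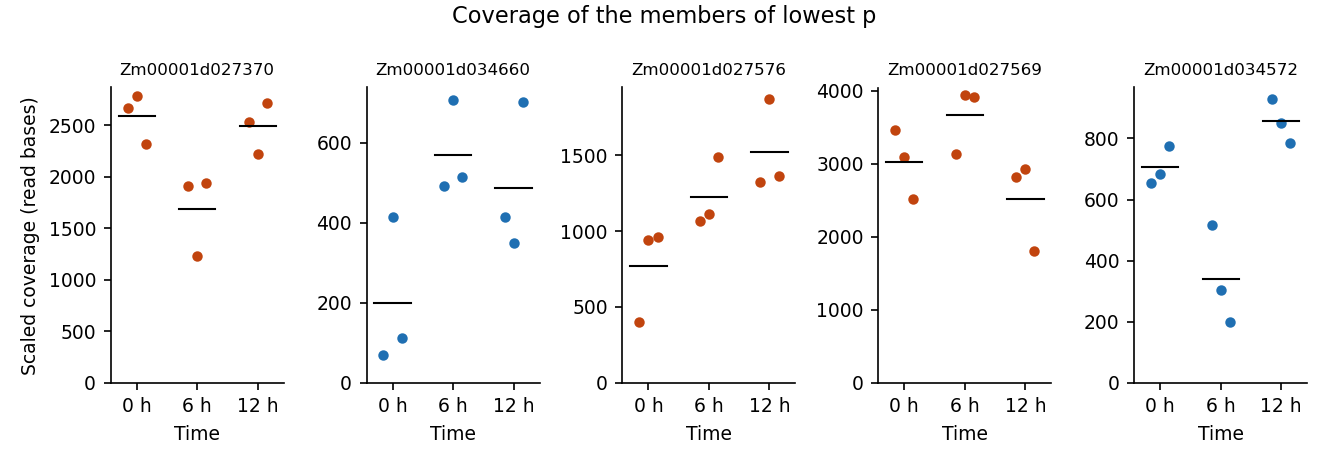
Scaled coverage in read bases (y axes, from 0) in each library (points) at 0 h, 6 h and 12 h, with the mean of 3 libraries as a line, for the 5 members that had the lowest p of their block in a comparison. Zm00001d027370 and Zm00001d034572 are lowest at 6 h, Zm00001d034660 and Zm00001d027576 are lowest at 0 h, and Zm00001d027569 is highest at 6 h.

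Libraries of one time agreed somewhat more closely in the members than in other genes. The median SD of a member's log2 coverage over 3 libraries was 0.28 at 0 h, 0.30 at 6 h and 0.28 at 12 h, against 0.31, 0.35 and 0.32 for other rows. Members also had more coverage, and this comparison was not made at equal coverage. The second block had 0.27, 0.30 and 0.26 and the first 0.29, 0.30 and 0.30.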

How the data were processed

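Deposited values were coverage (signal), whole numbers per gene identifier in 9 libraries, with 0 further sample columns. The submitters' processing notes name DESeq2, MACS2, Bowtie2 2.2.6 and cutadapt 1.11, with neither role nor order. Genome build, window, read shift and duplicate handling (not given in the sources used here) could all change the values. Depending on the library, 16.6% to 22.6% of values above 0 were exact multiples of 73. The authors' coverage was therefore not treated as read counts in the main fit, and the count tests first planned were not used. Only the alternative with voom weights, a method for counts, took the deposited coverage in place of counts. Libraries were scaled by TMM (trimming 30% of ratios and 5% of levels). After adding 73, log2 values were fitted with limma 3.58.1 in R 4.3.3 over all 9 libraries and 38703 rows, with trended and robust moderation and no filter. Such fold changes understate the change of low genes. P-values were two-sided and Benjamini-Hochberg adjusted over all rows, with a threshold of 0.05. Named genes were, per block, the 3 with the highest and lowest coverage, the 3 of lowest p in each direction of each comparison, and those at the block edges. Alternatives changed scaling, pseudocount, filter, weights, block limits and libraries. Genes marking stress or other classes could not be looked up, since no identifier matched the RefSeq table, and no sequence is shown. The members and lists were chosen with earlier results of these data known.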

Additional observations from a re-analysis of the deposited data

Results flagged for a closer look

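In 5 of the 46 named members, the 6 h libraries all lay to one side of the mean at 0 h and the 12 h libraries all lay to the other. Of these, 4 were named because of their low p at 12 h against 6 h, and no test of the shape itself was made. Scaled coverage of Zm00001d034572 averaged 705 ± 63.0 at 0 h (SD, n = 3), 339 at 6 h and 856 at 12 h. Its 12 h change exceeded its 6 h change by 516.7. Zm00001d034501 averaged 2408 ± 295 at 0 h (SD, n = 3), 1819 at 6 h and 2626 at 12 h, which gives 807.4 by the same measure. Zm00001d034400, the first gene of the second block, averaged 796 ± 110.2 at 0 h (SD, n = 3), 629 at 6 h and 1037 at 12 h, or 408.9. Zm00001d027569 peaked at 6 h instead, with 3019 ± 471 at 0 h (SD, n = 3), 3662 at 6 h and 2518 at 12 h, or -1144. Zm00001d034763 did likewise, with 914 ± 319 at 0 h (SD, n = 3), 1286 at 6 h and 649.7 at 12 h, or -636.6.

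The second block as a whole was lowest at 6 h too. Its mean share was 1.36% ± 0.0166 at 0 h (SD, n = 3), with 1.31% at 6 h and 1.37% at 12 h. Its 12 h change was 0.0658 percentage points above its 6 h change, untested, and its 12 h libraries overlapped with those at 0 h.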

How the results depend on the processing

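Every alternative run called 0 members in each comparison, though some called 1 or 2 rows outside the blocks. A square-root scale called 1 row at 6 h and 2 at 12 h, each set against 0 h. It called 1 between 12 h and 6 h. At 6 h set against 0 h, the replicate block and the run without 6 h replicate 1 each called 1 row. Between 12 h and 6 h, the run without 6 h replicate 2 called 2 rows. There a filter of at least 20 reads in 3 libraries called 1 of 8217 rows. With the replicate block 0 members were called. At an unadjusted p under 0.05 it had 61, 48 and 53 of 811 members, against 2471, 2091 and 2620 of all 38703 rows. These are in the order 6 h against 0 h, 12 h against 0 h and 12 h against 6 h. Same-numbered libraries deviated with correlations of -0.0184 to 0.00931, so the numbers were not taken to pair them. All 646 alternative log2 changes of named members kept direction and side of the threshold, with a lowest limma adjusted p of 0.281, but 23 of them moved by over 1.5 times. Many could not change direction. Row filters, the replicate block, the fit of only the 6 libraries compared and omission of a library of the third time leave the log2 change as it was. Most of these genes were also picked by their p in the same data. Count tests did not apply and were not run, apart from the voom weights, which took summed bases in place of counts. Of the alternative values for whole blocks and counts, 222 stayed close and 33 moved; the cause was not tested. The log2 level of the first block over other rows was 0.38 in the outer part that reaches past its outermost step, against 0.30 in the whole block. Medians of log2 change are given minus those of other rows. With a mean of at least 10 reads they were -0.033 (second block, 6 h against 0 h), -0.010 and 0.019 (both ends and second block, 12 h against 0 h) and 0.059 (both ends, 12 h against 6 h); with a pseudocount of 1 both ends had -0.031 at 12 h against 0 h. As a share of chromosome 1 coverage, relative changes were -3.93% (first block, 12 h against 0 h), and 2.36%, 0.439% and 4.16% (both ends, first and second block, 12 h against 6 h). With the blocks run to both limits of the stretch, chosen after seeing the data, both ends had -0.585% at 12 h against 0 h and 3.56% at 12 h against 6 h. Leaving out 1 library at a time, medians at 6 h against 0 h ran from -0.073 to -0.043 (both ends), -0.081 to -0.052 (first) and -0.067 to -0.026 (second, the weakest without 6 h replicate 1). At 12 h against 0 h they ran from -0.036 to -0.015, -0.064 to -0.031 and -0.016 to 0.018, the last falling under 0 without 12 h replicate 2 or 0 h replicate 3. At 12 h against 6 h both ends had 0.036 to 0.061.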
